A study of Mus musculus with 15 samples.

Results

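The inner root sheath keratins and trichohyalin were followed in mouse skin after bone marrow transplantation. The genes were the type I keratins Krt25, Krt27 and Krt28, the type II keratins Krt71, Krt72 and Krt73, and Tchh, which encodes trichohyalin. They were found by symbol through their Ensembl identifiers, and all 7 were present among the 56059 genes of the count table and passed the filter on low counts. Skin RNA was sequenced in 15 libraries of 4 groups. The first group, called the combination here, held allogeneic recipients given Wnt-C59 at 5 mg/kg together with belumosudil at 150 mg/kg (n = 4). The second held allogeneic recipients given Wnt-C59 alone at 5 mg/kg (n = 4). Allogeneic recipients given vehicle, 0.4% methylcellulose (n = 3), and syngeneic recipients given the same vehicle (n = 4) completed the set.

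All animals were transplanted, and vehicle or drug was given by mouth each day, starting on day 21 and ending on day 49. Allogeneic recipients develop the sclerodermatous form of chronic graft-versus-host disease, and syngeneic recipients are the control for the transplant itself. Wnt-C59 blocks porcupine, the enzyme that attaches a lipid to Wnt proteins before they leave the cell. Belumosudil is an inhibitor of ROCK2, a kinase of the cytoskeleton. Strain, sex, age and donor cell dose are not given in the sources used here, and skin of recipients given belumosudil alone was not analysed here. The labels do not say that the libraries of a group came from separate animals, so p-values measure only the spread between these libraries. The columns of the combination carry a code of letters that no label spells out. They were matched to that group because it was the only one of the series without other columns. The title of the series also names pairings of porcupine inhibition with ruxolitinib and with ibrutinib, so which drug was paired with Wnt-C59 in these columns rests on that match, and so does every value given for the combination. Treated libraries are called by the number in their column name (2, 3, 4 and 5 in the combination, 1, 2, 4 and 5 in Wnt-C59), which is not the replicate number of the labels.

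The inner root sheath is the sleeve of cells that surrounds and moulds the growing hair, and it is made from matrix cells of the hair bulb only while the follicle is in its growth phase. Its cells fill with heteropolymers of a type I and a type II keratin, so both kinds are needed for a filament, and mutations of Krt25 or Krt71 give mice a wavy coat. Trichohyalin coats and hardens these filaments after peptidylarginine deiminases modify it and transglutaminases cross-link it. In human hair, KRT25, KRT27, KRT28 and KRT71 are found in all layers of the sheath, whereas KRT72 and KRT73 mark its cuticle.

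Total estimated counts were 19.41 to 28.78 M (mega) in the combination, 18.99 to 21.6 M in Wnt-C59, 16.26 to 18.01 M in allogeneic vehicle and 18.58 to 20.39 M in syngeneic vehicle libraries, and each library had counts for 22110 to 24283 genes. Of the values above 0, 44.76% to 60.62% were not whole numbers in the treated libraries, against 31.07% to 34.39% in the vehicle libraries. This split runs along treatment, so handling of the treated and the vehicle libraries cannot be told apart from the treatments themselves. Log2 fold changes also followed the GC content of genes in comparisons across that split (Spearman's rho across 18227 genes 0.541 for the combination and 0.504 for Wnt-C59 against allogeneic vehicle, and -0.1 for allogeneic against syngeneic vehicle). The GC content of a gene was therefore also regressed out in a separate fit, which changed no count of called genes among the 7. The basal keratin gene Krt14 marked all groups as skin, with means of 10410 CPM in the combination, 7149 CPM in Wnt-C59, 8859 CPM in allogeneic vehicle and 2445 CPM in syngeneic vehicle skin. How reads of near-identical keratin sequences or of the opposite strand were assigned is not given in the sources used here, and values of the 7 genes that were not whole numbers (5 of 7 above 0 for Krt72, 10 of 15 for Tchh) leave the level of single paralogs uncertain to that extent. Levels are in CPM, the counts per M of the TMM-scaled library size, throughout.

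All 7 genes were high in the 4 syngeneic vehicle libraries and in libraries 4 and 5 of the combination, and low in the other 9 libraries. Krt71, the type II keratin with the highest level per length, had 0.66, 0.914, 15140 and 2002 CPM in combination libraries 2, 3, 4 and 5, and 0.564, 0.595, 0.677 and 0.76 CPM in Wnt-C59 libraries 1, 2, 4 and 5. It had 0, 0.12 and 0.169 CPM in the allogeneic vehicle libraries and 2365, 6522, 6651 and 3738 CPM in the syngeneic vehicle libraries. Combination library 4 was thus above every syngeneic library, library 5 was below every one of them, and libraries 2 and 3 were close to the Wnt-C59 libraries. In counts, the low libraries held 0 to 19 reads of Krt71 each, and the highest held 267963. In bulk skin, fewer cells of a type and less RNA per cell cannot be told apart.

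Krt25 was high in the same 6 libraries as Krt71 and was at 0 in 6 of the other 9. It had 0, 0, 7647 and 1312 CPM in the combination, 0, 0, 0 and 0.0951 CPM in Wnt-C59, 0.182, 0.419 and 0 CPM in allogeneic vehicle and 1571, 4149, 4844 and 2480 CPM in syngeneic vehicle skin. The single Wnt-C59 value above 0 came from 2 counts. Krt27, of the same type I cluster, had 0.427, 0.77, 6282 and 627.5 CPM in the combination, 0.256, 0.446, 0.417 and 0.143 CPM in Wnt-C59, 0, 0 and 0.226 CPM in allogeneic vehicle and 754.1, 2542, 2801 and 1568 CPM in syngeneic vehicle skin. For both genes, combination library 5 lay below the lowest syngeneic library and library 4 above the highest.

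Krt28, the last type I gene of the set, kept a trace of RNA in treated skin. It had 1.28, 3.70, 1313 and 182.2 CPM in the combination and 2.51, 3.42, 4.32 and 1.52 CPM in Wnt-C59 skin. The allogeneic vehicle libraries had 0.0608, 0 and 0 CPM, which was 1 count in all, and the syngeneic vehicle libraries had 234.1, 428.7, 621.1 and 346 CPM. All 8 treated libraries were above all 3 allogeneic vehicle libraries for Krt28, and the same held for Krt71. The share of all genes with that order of libraries is not given here.

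Krt72 and Krt73, type II keratins of the sheath cuticle in human hair, differed in their floor. Krt72 had 0, 0, 2122 and 68.4 CPM in the combination, 0, 0, 0.0521 and 0 CPM in Wnt-C59, 0 CPM in all 3 allogeneic vehicle libraries and 73.2, 335.9, 374.9 and 294.1 CPM in syngeneic vehicle skin. As a ratio, Krt72 had the widest gap between combination libraries 4 and 5 among the 7 genes. Krt73 had 0.155, 0, 1245 and 355.3 CPM in the combination, 1.59, 0, 0.0521 and 0.76 CPM in Wnt-C59, 0.0608, 3.53 and 1.24 CPM in allogeneic vehicle and 454.4, 803.8, 720.9 and 620.7 CPM in syngeneic vehicle skin. Its low libraries thus scattered between 0 and 59 counts, with overlap between treated and allogeneic vehicle skin.

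Tchh had the highest floor. It had 5.00, 3.66, 7040 and 544.3 CPM in the combination, 6.46, 6.25, 4.11 and 5.51 CPM in Wnt-C59, 17.98, 7.66 and 16.63 CPM in allogeneic vehicle and 2083, 8242, 6714 and 3354 CPM in syngeneic vehicle skin. Unlike the keratins, Tchh in combination library 4 was inside the range of the syngeneic libraries. All 4 Wnt-C59 libraries and combination libraries 2 and 3 were below every allogeneic vehicle library for this gene.

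**Figure D1:**
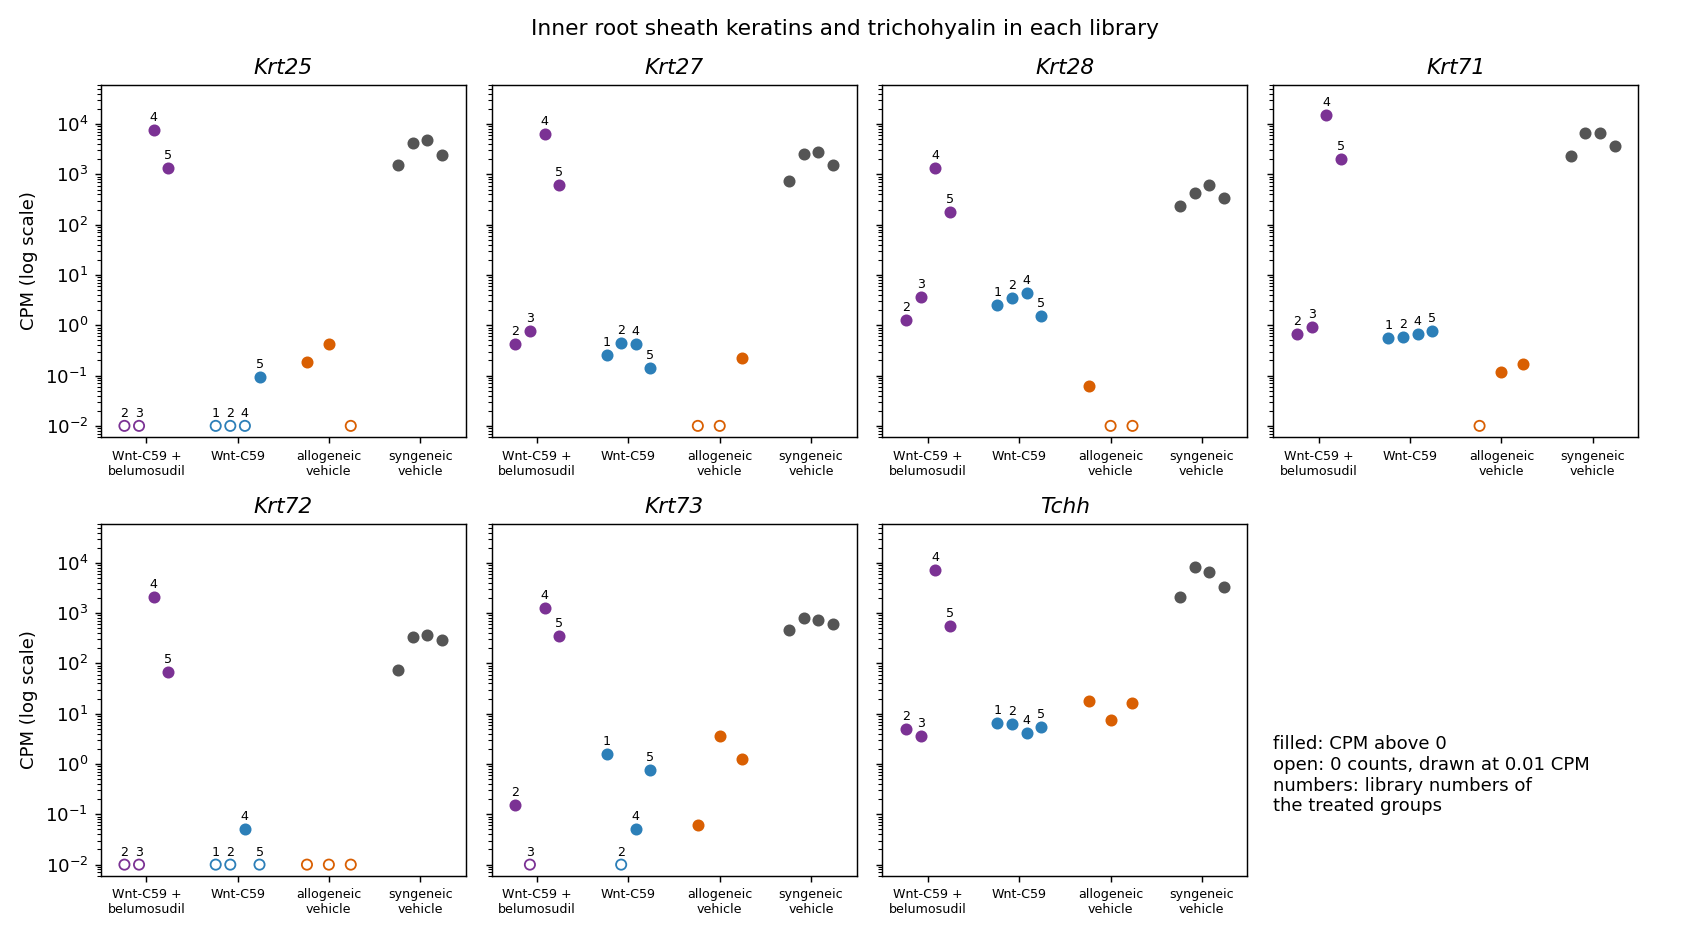
CPM (log axis) of each of the 7 genes in the 15 libraries, 1 point per library, with groups left to right as Wnt-C59 plus belumosudil, Wnt-C59, allogeneic vehicle and syngeneic vehicle; open points are libraries with 0 counts. Combination libraries 4 and 5 sit near or above the syngeneic vehicle libraries, and the other 2 combination libraries sit with the Wnt-C59 and allogeneic vehicle libraries.

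Per kb of the longest annotated transcript, the order of the genes in syngeneic vehicle skin was Krt71 with 2204 ± 968.4, Krt25 with 1640 ± 754.7, Krt27 with 1236 ± 605.9, Tchh with 875.5 ± 492, Krt73 with 299.8 ± 69.3, Krt28 with 250.9 ± 100.5 and Krt72 with 138 ± 69.1 CPM per kb (SD, n = 4). Neighbours in this order differed by less than the larger SD of the pair, except Tchh against Krt73 and Krt28 against Krt72, where the means differed by more than that. Syngeneic library 1 was the lowest of its group for each of the 7.

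The make-up of the summed CPM of the 7 genes in combination libraries 4 and 5 was not that of syngeneic vehicle skin, with more Krt71 and less Tchh. The sum was 40790 CPM in combination library 4 and 5091 CPM in library 5, and 7535 to 23020 CPM in the syngeneic vehicle libraries. Krt71 made up 37.12% and 39.32% of it in combination libraries 4 and 5, against 28.33% to 31.39% in syngeneic vehicle skin. Tchh made up 17.26% and 10.69% in these combination libraries, against 27.05% to 35.8% in syngeneic vehicle skin. The type I genes held 45.2% and 46.7% of the keratin CPM in combination libraries 4 and 5 and 46.9% to 51.6% in syngeneic vehicle skin. These shares describe single libraries and were not tested.

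Where the sum was small, its make-up was another one. Tchh was the largest share in the allogeneic vehicle libraries, with 98.34%, 65.31% and 91.05% of a sum of 11.74 to 18.28 CPM. In Wnt-C59 skin Tchh held 42.7% to 62.7% and Krt28 held 17.3% to 44.86% of a sum of 8.792 to 11.38 CPM. Combination libraries 2 and 3 had sums of 7.526 and 9.042 CPM, with Tchh at 66.49% and 40.43% and Krt28 at 17.01% and 40.96%. These 9 libraries held 185 to 324 counts of the 7 genes each, so a share there rests on few reads.

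**Figure D2:**
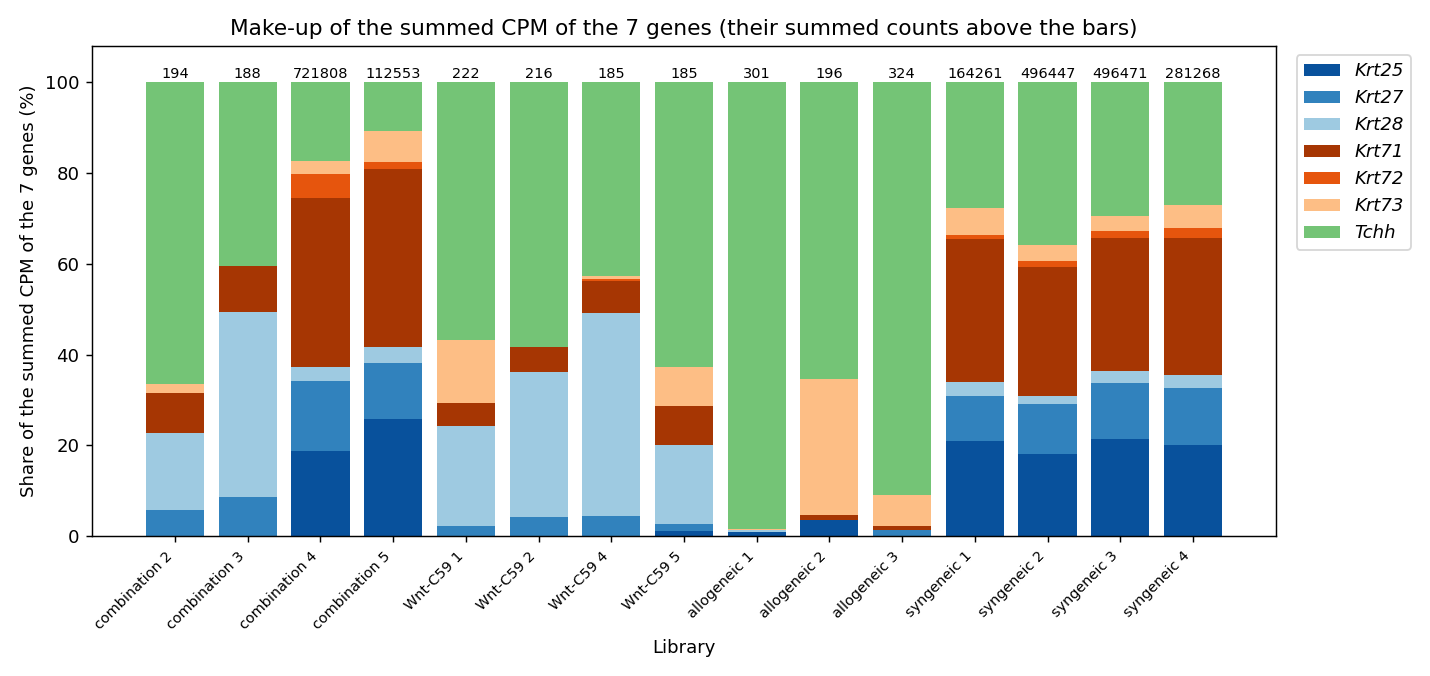
Share of each gene in the summed CPM of the 7 genes (percent, stacked bars, 1 bar per library; summed counts above the bars). Bars of combination libraries 4 and 5 and of the 4 syngeneic vehicle libraries hold all 7 colours with Krt71 large and Tchh smaller in the 2 combination bars (17.26% and 10.69%), whereas Tchh fills 40.43% to 98.34% of the other bars, with Krt28 next to it in treated skin; those bars rest on 185 to 324 counts.

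Because the 7 genes moved together, their promoters were compared over the 250 bases upstream of the annotated start (RefSeq sequence, build GRCm38.p6, all 7 matched by symbol). The 5 that hold AGATAA, a spelling of the GATA factor motif, are printed 5′ to 3′ on the strand of the gene, with AGATAA and TATAAA in capitals. They lie at chr11:99322952-99323201 (Krt25, minus strand), chr11:99351119-99351368 (Krt27, minus), chr15:101743098-101743347 (Krt71, minus), chr15:101802361-101802610 (Krt73, minus) and chr3:93442080-93442329 (Tchh, plus).
Krt25: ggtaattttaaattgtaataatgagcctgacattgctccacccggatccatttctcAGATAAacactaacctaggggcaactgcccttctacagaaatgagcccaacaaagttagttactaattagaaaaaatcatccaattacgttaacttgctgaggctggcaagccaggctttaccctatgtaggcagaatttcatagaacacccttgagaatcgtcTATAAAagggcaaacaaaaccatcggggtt
Krt27: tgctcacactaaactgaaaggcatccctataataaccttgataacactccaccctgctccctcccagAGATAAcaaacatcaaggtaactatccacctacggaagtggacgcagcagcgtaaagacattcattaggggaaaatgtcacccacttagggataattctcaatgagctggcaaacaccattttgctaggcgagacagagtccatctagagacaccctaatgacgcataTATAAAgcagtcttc
Krt71: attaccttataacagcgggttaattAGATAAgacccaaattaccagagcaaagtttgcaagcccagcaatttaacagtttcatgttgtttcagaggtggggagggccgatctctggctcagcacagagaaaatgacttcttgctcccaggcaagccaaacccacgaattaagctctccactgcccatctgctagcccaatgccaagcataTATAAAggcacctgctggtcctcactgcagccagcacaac
Krt73: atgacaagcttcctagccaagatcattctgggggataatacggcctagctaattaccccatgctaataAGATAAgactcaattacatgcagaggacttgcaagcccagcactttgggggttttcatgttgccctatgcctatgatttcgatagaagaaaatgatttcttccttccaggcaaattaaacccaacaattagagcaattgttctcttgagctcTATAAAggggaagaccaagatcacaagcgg
Tchh: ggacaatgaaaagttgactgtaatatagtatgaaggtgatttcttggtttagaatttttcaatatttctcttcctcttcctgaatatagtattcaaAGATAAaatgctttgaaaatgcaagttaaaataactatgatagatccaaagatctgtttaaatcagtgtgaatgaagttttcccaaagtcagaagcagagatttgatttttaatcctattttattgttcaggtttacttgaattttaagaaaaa

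The type I genes Krt25, Krt27 and Krt28 lie on chromosome 11 and the type II genes Krt71, Krt72 and Krt73 on chromosome 15, within the keratin clusters. AGATAA was found in 5 of the 7 promoters, against 9.99% of 32851 promoters of the same length, with both strands searched throughout. Its first base lay 194 (Krt25), 183 (Krt27), 225 (Krt71), 182 (Krt73) and 154 (Tchh) bases upstream of the start. TATAAA was found in 6 of 7 promoters, against 12.4% of all promoters. It began 30 bases upstream in Krt25, Krt28 and Krt73, 15 in Krt27 and 40 in Krt71, and only on the opposite strand, 203 bases upstream, in Krt72. CCAAT was found in 4 (33.8% of all promoters), CTTTGA in 2 (13.8%), CTTTGT in 1 (16.5%) and TGANTCA in 0 of the 7 (6.75%). In Tchh, AGATAA overlapped a CTTTGA on the opposite strand, and no other matches overlapped. The longest run of letters shared by a pair of the 7 promoters was 14 bases, ttgcaagcccagca in Krt71 and Krt73, and Krt27 and Krt71 shared 12, gcatatataaag. Matches of letters are a description, and no binding was measured.

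Allogeneic vehicle skin held almost no RNA of the inner root sheath keratins, against high levels in syngeneic vehicle skin. All 7 genes fell, in every library of the group (edgeR quasi-likelihood test, Benjamini-Hochberg adjusted p under 0.05), where 15.1% of the 18651 genes tested were called lower, 14.6% higher and 29.8% in either direction. Their median log2 fold change was -13.96 (-13.95 with Krt72 set at its bound), against -0.07 for all genes. Krt71 averaged 0.0963 ± 0.087 CPM in allogeneic vehicle skin (SD, n = 3) and 4819 ± 2117 CPM in syngeneic vehicle skin (SD, n = 4), a 50000-fold lower mean with a 95% counting interval of 21400 to 154000, on 5 counts in allogeneic vehicle skin (log2 fold change -15.50, SE 3.71, adjusted p = 0.0086). Krt25 was 16300-fold lower (interval 8850 to 33900, adjusted p = 0.018) and Krt27, with 4 counts, 25500-fold lower (interval 9960 to 93600, adjusted p = 0.011). Krt28, with 1 count in allogeneic vehicle skin, was 20100-fold lower with a 95% counting interval of 3610 to 795000 (adjusted p = 0.005). For Krt72, at 0 in all allogeneic vehicle libraries, the mean was at least 1520-fold lower, at a floor of 3 counts per library (adjusted p = 0.043).

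The fall was smaller in Krt73 and Tchh, whose floor was higher. Krt73 averaged 1.61 ± 1.77 CPM in allogeneic vehicle skin and 649.9 ± 150.3 CPM in syngeneic vehicle skin (SD, n = 3 and 4), 403-fold lower (interval 325 to 507, log2 fold change -8.65, SE 2.87, adjusted p = 0.04). Tchh averaged 14.09 ± 5.61 CPM in allogeneic vehicle skin and 5098 ± 2865 CPM in syngeneic vehicle skin, 362-fold lower (log2 fold change -8.50, SE 2.40, adjusted p = 0.02). An exact permutation test over libraries, two-sided on the absolute difference of mean CPM, gave p = 0.0286 for Krt28 and Krt73 and p = 0.0571 for the other 5 genes, where 0.0286 is the smallest value that 3 against 4 libraries allow. The groups did not overlap for any of the 7 genes, but the share of all genes for which this held is not given here. Without allogeneic vehicle library 1 or 2, 3 of the 7 calls were left, without library 3 there were 2, and without any 1 syngeneic library 5. Krt28 and Krt71 passed in all 3 of the fits that left out an allogeneic library. limma-voom called Tchh alone, with log2 fold changes of the other 6 still between -15.47 and -9.72.

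Of 12 other genes of the inner root sheath, 11 were tested and 7 fell in allogeneic against syngeneic vehicle skin (15.1% of all genes did), none rose and 4 did not pass. Their median log2 fold change was -1.89, with Padi3 and Krt26 as far down as members of the set. The peptidylarginine deiminase Padi3, which modifies trichohyalin, fell to 0.654 CPM in allogeneic vehicle skin, against 284.7 CPM in syngeneic vehicle skin (log2 fold change -8.76, SE 2.43, adjusted p = 0.018). The transcription factors of the hair bulb fell by less. Gata3, which directs matrix cells to the inner root sheath, averaged 95.65 CPM in allogeneic and 198.4 CPM in syngeneic vehicle skin (adjusted p = 0.0073), and Dlx3 averaged 23.14 and 234.6 CPM in the same groups (adjusted p = 0.0081). Cux1 (72.7 and 268.9 CPM, adjusted p = 0.0008), Sox21 (23.61 and 107.4 CPM, adjusted p = 0.00019), Liph (14.84 and 30.98 CPM, adjusted p = 0.025) and Lpar6 (13.43 and 31.8 CPM, adjusted p = 0.038) fell as well, in the same order of groups.

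The remaining sheath genes did not pass the test. Krt26, a type I keratin of the sheath, was at 0 in all allogeneic vehicle libraries and averaged 260.6 CPM in syngeneic vehicle skin, at least 1470-fold lower (adjusted p = 0.083). Padi1 had log2 fold change -5.03 (adjusted p = 0.089), Prss53 -1.50 (adjusted p = 0.2) and the transglutaminase gene Tgm3, which is also active in the epidermis, 1.09 (adjusted p = 0.32). Krt74 was not tested, with 0 to 31 counts in any library.

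In skin given Wnt-C59 alone, these keratins were near the floor of allogeneic vehicle skin and far under syngeneic vehicle skin. Against allogeneic vehicle, 0 of the 7 genes passed the edgeR test, where 50.8% of the 18651 genes tested were called in either direction (24.6% higher and 26.2% lower). At an unadjusted p under 0.05 there was 1, Krt28. DESeq2 called 1, again Krt28, and limma-voom called 0. Krt28 averaged 2.94 ± 1.20 CPM in Wnt-C59 skin (SD, n = 4) and 0.0203 ± 0.0351 CPM in allogeneic vehicle skin (SD, n = 3), a ratio of 145 with a 95% counting interval of 26.1 to 5740 (log2 fold change 6.83, SE 3.04, adjusted p = 0.08). In a fit of these groups alone, 3 genes passed, with log2 fold changes of 6.77 for Krt28 (adjusted p = 4e-04), 2.63 for Krt71 (adjusted p = 0.011) and -1.37 for Tchh (adjusted p = 0.0078), and Krt25, Krt27 and Krt72 were below its filter. The same 3 passed in a fit without the 4 combination libraries, chosen after seeing the data.

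The small values on the floor of Wnt-C59 skin went in different directions. Krt71 had 0.649 ± 0.0882 CPM in Wnt-C59 skin and 0.0963 ± 0.087 CPM in allogeneic vehicle skin (exact permutation test over libraries, p = 0.0286, the smallest possible). Tchh had 5.58 ± 1.06 CPM in Wnt-C59 skin and 14.09 ± 5.61 CPM in allogeneic vehicle skin (exact permutation test, p = 0.0286). Among 7 genes tested in this comparison, the other 5 had exact permutation p-values of 0.0571 to 1.0. The median log2 fold change was 1.60 over the 7 genes, and 0.30 over 6 without Krt72, which has no defined fold since both groups were at or under the floor of 3 counts per library.

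Against syngeneic vehicle, all 7 genes were called lower in Wnt-C59 skin, where 27% of genes tested were called lower (26% higher, 53.1% in either direction). These 2 groups did not overlap for any of the 7 genes, but the share of all genes without overlap is not given here. The adjusted p ran from 0.003 to 0.014, and the exact permutation p was 0.0286 for each of the 7, the smallest possible with 4 against 4 libraries. Krt71 was 7420-fold lower (interval 5660 to 9940, log2 fold change -12.84, SE 2.87), Tchh 913-fold lower (-9.83, SE 2.21) and Krt28 138-fold lower (-7.11, SE 1.78). Krt25, with 2 counts in Wnt-C59 skin, was 137000-fold lower with a counting interval of 38000 to 1130000. limma-voom called Krt28 and Tchh.

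In the combination, the group mean of all 7 genes was above that of allogeneic vehicle skin, with most of it in 2 of its 4 libraries. All 7 passed the edgeR test, where 27.1% of genes tested were called higher (27.4% lower, 54.5% in either direction), and their median log2 fold change was 13.83 (13.42 with Krt72 at its bound), against 0.01 for all genes. Krt71 averaged 4287 ± 7299 CPM in the combination (SD, n = 4) and 0.0963 ± 0.087 CPM in allogeneic vehicle skin (SD, n = 3), a 44500-fold higher mean with a counting interval of 19100 to 137000 (log2 fold change 15.33, SE 3.70, adjusted p = 0.0042). Krt25 was 11200-fold higher (interval 6080 to 23300, adjusted p = 0.01), Krt27 23000-fold (8980 to 84300, adjusted p = 0.0054), Krt73 248-fold (200 to 312, adjusted p = 0.03) and Tchh 135-fold (adjusted p = 0.019). Krt28 was 18500-fold higher with a counting interval of 3330 to 732000 (adjusted p = 0.0024), and Krt72 at least 3090-fold (adjusted p = 0.02).

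The SD of the combination exceeded its mean for each of the 7 genes. Combination libraries 4 and 5 were above every allogeneic vehicle library for all 7, whereas libraries 2 and 3 were above them for Krt27, Krt28 and Krt71 and below them for Tchh. The exact permutation test over libraries gave p-values of 0.4 to 0.714, and limma-voom called 0 of the 7, whereas DESeq2 called 6. Without combination library 4, 5 genes passed edgeR, with log2 fold changes of 11.07 to 12.65. Krt73 (log2 fold change 6.20, adjusted p = 0.052) and Tchh (3.71, adjusted p = 0.06) did not pass then. Without allogeneic vehicle library 1 or library 3, 4 genes passed, without library 2, 5 passed, and in a fit of these groups alone Krt27, Krt28 and Krt71 passed.

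The combination had far higher means than Wnt-C59 alone, with groups that overlapped. Against Wnt-C59, 0 of the 7 genes passed the edgeR test, with adjusted p of 0.077 to 0.1, where 0.231% of genes tested were called (0.102% higher and 0.129% lower). All 7 had an unadjusted p under 0.05, DESeq2 called 6 and gave no adjusted p for Krt72, and limma-voom called 0. The mean ratio was 6600 for Krt71 (counting interval 5040 to 8840, log2 fold change 12.67, SE 2.86), 5480 for Krt27 (3710 to 8460, 12.40, SE 2.83), 667 for Krt73 (503 to 904, 9.37, SE 2.61), 340 for Tchh (8.41, SE 2.09) and 127 for Krt28 (6.99, SE 1.77). Krt25 had a ratio of 94200 with a counting interval of 26100 to 778000, and Krt72 one of 42100 with an interval of 7550 to 1660000. These ratios rest on combination libraries 4 and 5, with the larger part from library 4. Without library 4 the log2 fold changes were smaller but still high. They were 9.99 for Krt71, 9.36 for Krt27, 7.61 for Krt73, 5.04 for Tchh, 4.41 for Krt28, 13.78 for Krt25 and 10.26 for Krt72, with adjusted p of 0.086 to 0.14. The groups overlapped for all 7 genes, since combination libraries 2 and 3 lay among or close to the Wnt-C59 libraries, and the exact permutation p was 0.0571 to 0.429.

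Against syngeneic vehicle, the mean of the combination differed by less than the spread between its libraries. None of the 7 passed the edgeR test or had an unadjusted p under 0.05, where 54.1% of genes tested were called in either direction (26.9% higher and 27.2% lower). The adjusted p ran from 0.46 to 0.95, DESeq2 called 0 and limma-voom called 3, Krt25 (log2 fold change -8.93), Krt72 (-6.73) and Krt73 (-6.88). Krt71 averaged 4287 ± 7299 CPM in the combination and 4819 ± 2117 CPM in syngeneic vehicle skin (SD, n = 4 each), with a log2 fold change of -0.17 and an SE of 1.74. Tchh averaged 1898 ± 3437 CPM in the combination and 5098 ± 2865 CPM in syngeneic vehicle skin (log2 fold change -1.43, SE 1.54). Without combination library 4, the log2 fold changes of the 7 genes ran from -4.79 to -2.46, and Tchh passed as lower (adjusted p = 0.023). An SE of 1.35 to 2.00 on the log2 scale does not show that the groups had like levels. The comparisons with allogeneic vehicle share its 3 libraries, and those with syngeneic vehicle share its 4.

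Krt75, the keratin of the companion layer that lies between the inner and the outer root sheath, was well above the floor in Wnt-C59 skin, where the sheath keratins were not. It had 143.3, 184.6, 1282 and 278.1 CPM in the combination, 131.4, 259.2, 177.9 and 78.3 CPM in Wnt-C59, 3.16, 0.898 and 5.3 CPM in allogeneic vehicle and 265.4, 516.9, 505.1 and 352.8 CPM in syngeneic vehicle skin. Krt75 was 51.8-fold higher in Wnt-C59 than in allogeneic vehicle skin (log2 fold change 5.69, SE 0.96, adjusted p = 0.0004) and 151-fold higher in the combination than in allogeneic vehicle skin (7.24, SE 1.03, adjusted p = 0.0001). Allogeneic vehicle skin was 131-fold lower than syngeneic vehicle skin (-7.03, SE 1.02, adjusted p = 0.00033). All 8 treated libraries were above all allogeneic vehicle libraries for Krt75, an order whose share among all genes is not given here. The combination and Wnt-C59 did not pass the test against each other for Krt75 (adjusted p = 0.23).

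Genes of the outer root sheath and bulge, which lie outside the inner sheath, were also present in all treated libraries. Of 6 listed, 6 fell in allogeneic against syngeneic vehicle skin, 5 rose in Wnt-C59 and 5 in the combination against allogeneic vehicle, where 15.1% of all genes fell and 24.6% and 27.1% rose in the same comparisons. The bulge keratin Krt15 averaged 2267 CPM in the combination, 4149 CPM in Wnt-C59, 115.5 CPM in allogeneic vehicle and 1372 CPM in syngeneic vehicle skin. Combination libraries 2, 3, 4 and 5 had 2346, 2324, 2242 and 2156 CPM of Krt15, so all 4 lay close together for this gene. Other genes of the list were less even. Lhx2 had 54.19, 34.96, 121.2 and 103.6 CPM, Tbx1 55.74, 55.4, 172.1 and 110.8 CPM and Lgr5 4.15, 4.76, 22.72 and 16.74 CPM in these libraries, all higher in libraries 4 and 5. Cd34 did not have that order, with its highest value in the combination, 240.4 CPM, in library 2 and its lowest, 113.5 CPM, in library 4. Tbx1, Lgr5 and Cd34 were chosen after their values were seen. Sebaceous gland genes had 6 of 6 called higher in Wnt-C59 (24.6% of all genes were) and 4 of 6 in the combination against allogeneic vehicle (27.1% were). Their summed CPM was 1740 to 2850 in the combination, 1929 to 5774 in Wnt-C59, 282.4 to 1616 in allogeneic vehicle and 1952 to 2825 in syngeneic vehicle skin. Scd1 was the largest part of that sum, with a mean of 815.7 CPM in allogeneic vehicle skin. Far2, Awat1 and Awat2 averaged 2.62, 0.193 and 0.275 CPM there, against 151.6, 35.91 and 31.28 CPM in syngeneic vehicle skin. In allogeneic against syngeneic vehicle skin 4 of the 6 fell (15.1% of all genes did).

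Hair shaft keratins, built in the same bulb inside the sheath, had a high sum in the same 6 libraries as the sheath keratins. Krt84 of that list did not have this order. It had 0.321 CPM in its lowest syngeneic vehicle library, against 1.215 to 4.491 CPM in allogeneic vehicle skin. Of 15 shaft keratins listed, 14 were tested, and 10 fell (15.1% of all genes did) in allogeneic against syngeneic vehicle skin, with a median log2 fold change of -12.13 (-11.19 with 6 genes at their bound). In the combination against allogeneic vehicle 11 of 14 rose (27.1% of all genes did). In Wnt-C59 against allogeneic vehicle 0 of 14 passed, where 50.8% of all genes did in either direction. In Wnt-C59 against syngeneic vehicle 13 of 14 fell (27% of all genes did). The shaft keratins summed to 6.21, 4.62, 13330 and 793.1 CPM in the combination, 6.75 to 10.76 CPM in Wnt-C59, 1.94 to 5.03 CPM in allogeneic vehicle and 535 to 6054 CPM in syngeneic vehicle skin. Set against the 7 sheath genes, that sum was 32.7% and 15.6% in combination libraries 4 and 5 and 7.1%, 26.3%, 24.1% and 23% in the syngeneic vehicle libraries. Combination library 5 was above syngeneic library 1 in the shaft sum and below it in the sheath sum, so the order within the high libraries was not the same.

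**Figure D3:**
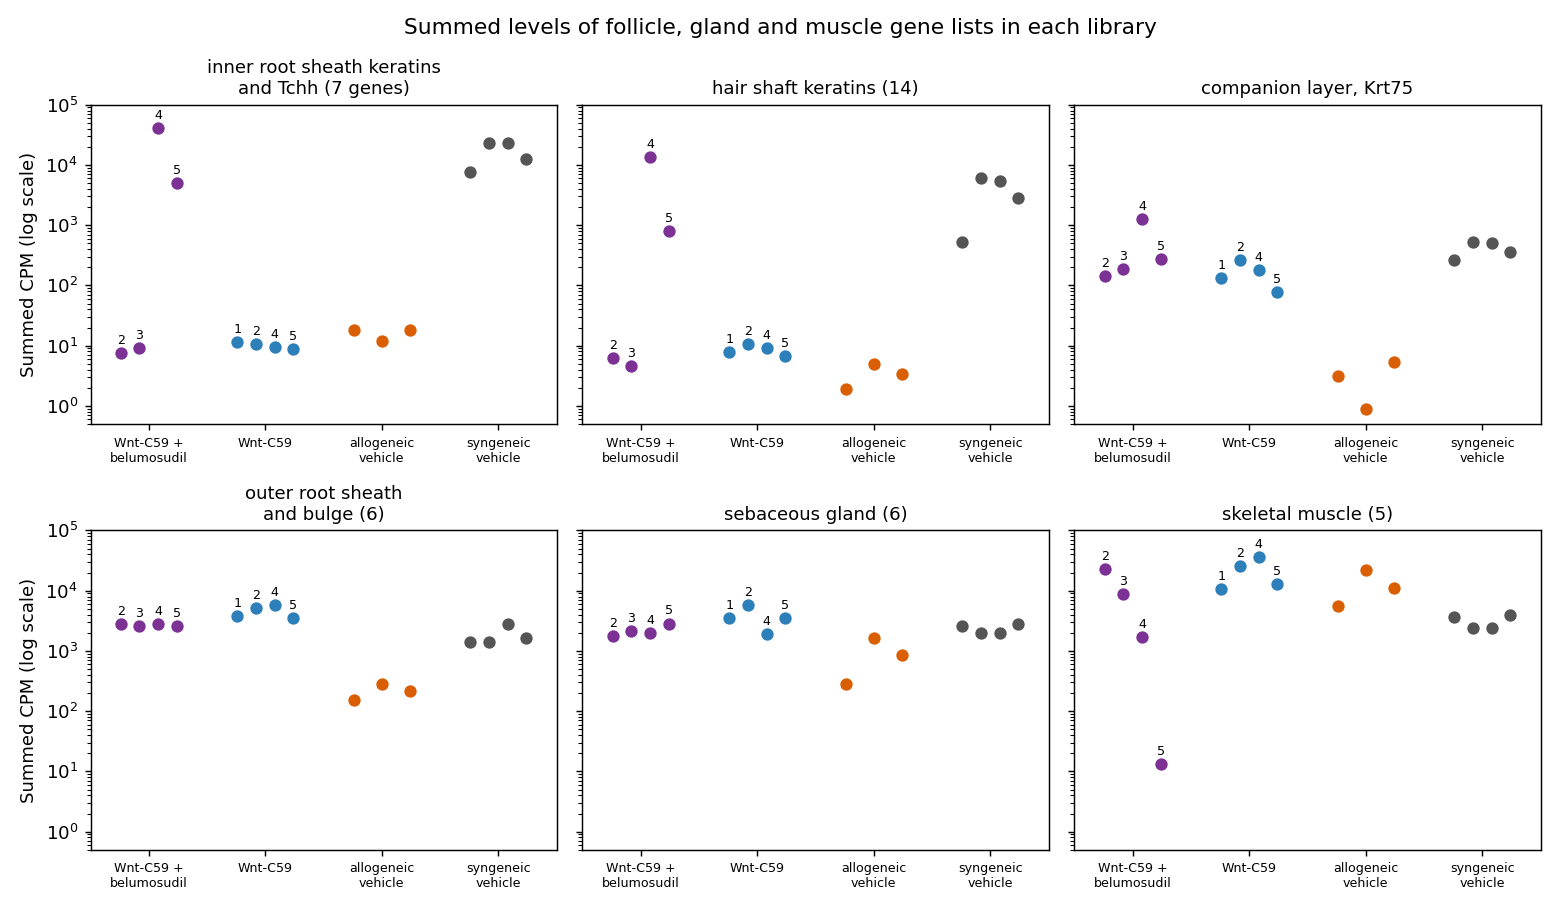
Summed CPM (log axis) of 6 gene lists in each library, 1 point per library, with groups left to right as Wnt-C59 plus belumosudil, Wnt-C59, allogeneic vehicle and syngeneic vehicle. Inner root sheath and hair shaft sums are high in combination libraries 4 and 5 and in syngeneic vehicle skin, Krt75, bulge and sebaceous sums are above allogeneic vehicle in all 8 treated libraries, and muscle sums are lowest in combination libraries 4 and 5 among treated skin.

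Of 8 regulators of the hair matrix, 7 fell in allogeneic against syngeneic vehicle skin (15.1% of all genes did) and 6 rose in the combination against allogeneic vehicle (27.1% of all genes did). In Wnt-C59 against allogeneic vehicle 1 of 8 rose, no larger a share than the 24.6% of all genes, and it was Bmp4 (24.12 CPM in Wnt-C59 and 5.30 CPM in allogeneic vehicle skin, adjusted p = 0.0034). Hoxc13, a transcription factor that drives hair keratin genes, had 6.52, 9.91, 139.3 and 45.69 CPM in the combination and 9.48 to 14.73 CPM in Wnt-C59, against 0.851 to 4.45 CPM in allogeneic and 77.11 to 147.1 CPM in syngeneic vehicle skin. Hoxc13 was thus highest in syngeneic vehicle skin and in combination libraries 4 and 5, with library 4 inside the syngeneic range and library 5 below it. Dlx3 had 35.46, 27.41, 388.5 and 179.1 CPM in the combination, 36.2 to 41.51 CPM in Wnt-C59, 12.03 to 32.25 CPM in allogeneic vehicle and 189.6 to 297 CPM in syngeneic vehicle skin. Gata3 did not have that order, with 158, 107.2, 184.8 and 218.6 CPM in combination libraries 2, 3, 4 and 5 and 204.9 to 229.2 CPM in Wnt-C59 skin, where it rose over allogeneic vehicle (log2 fold change 1.16, SE 0.26, adjusted p = 0.002). Sox21, of the same list of sheath genes, rose there too (1.42, SE 0.31, adjusted p = 0.0015), and these were the 2 of 11 that did, a share below the 24.6% of all genes called higher.

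Of dermal papilla genes, 4 of 5 fell in allogeneic against syngeneic vehicle skin (15.1% of all genes did). Against allogeneic vehicle, 0 of 5 passed in Wnt-C59 (50.8% of all genes did) and 2 of 5 rose in the combination, a count near the 27.1% of all genes. Those 2 were Hhip, a Hedgehog-binding protein (1.73 CPM in the combination and 0.312 CPM in allogeneic vehicle skin, adjusted p = 0.011), and Corin (2.83 and 0.529 CPM, adjusted p = 0.026), a papilla protease. Corin had 0.31, 0.673, 5.31 and 5.02 CPM in combination libraries 2, 3, 4 and 5. The high libraries of Corin were those with sheath keratins, but the summed CPM of the list did not follow them. The 5 papilla genes summed to 38.95, 59.88, 31.03 and 49.71 CPM in the same libraries, lowest in library 4. Crabp1, with a mean of 33.87 CPM and a range of 18.2 to 56.03 CPM in the combination, was the largest part of that sum. It did not pass in allogeneic against syngeneic vehicle skin (20.27 and 15 CPM, adjusted p = 0.45). The sum therefore describes mainly Crabp1 and does not show how the other genes of the list were ordered.

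The 10 genes outside the set were those most like the mean log2 CPM of the 7 over the 15 libraries, by Pearson's r. Only tested genes averaging 1 CPM or more were ranked, and genes without a symbol or with a predicted or clone name (such as Gm or Rik) were left out. The 10 were Krt26 (0.998), Lyg2 (0.994), Krt35 (0.993), Tgm6 (0.993), and Krt33b, Krtap28-10, Krt33a, Actbl2, Krt87 and Krtap11-1 (0.99 to 0.991). These r values rest on libraries that are either near 0 or high, and they describe that order only. Lyg2 was at 0 in all Wnt-C59 and allogeneic vehicle libraries and had 0, 0, 103.4 and 17.32 CPM in the combination, against 39.36 to 187.8 CPM in syngeneic vehicle skin. Tgm6, a transglutaminase gene, had 0, 0, 156.3 and 15.2 CPM in the combination and 29.22 to 140.9 CPM in syngeneic vehicle skin. Within the set, each gene had an r of 0.927 (Krt28) to 0.994 (Krt71 and Krt72) with the mean of the other 6.

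Genes of other cell types differed between the same libraries. The 5 skeletal muscle genes summed to 23300, 8907, 1698 and 13.48 CPM in combination libraries 2, 3, 4 and 5, 10840 to 35820 CPM in Wnt-C59, 5671 to 22000 CPM in allogeneic vehicle and 2364 to 3915 CPM in syngeneic vehicle skin, with no gene at 0 in any library. The libraries with high sheath keratins were thus the 6 with the lowest muscle sums, and the part of muscle content in the result was not tested. T cell genes, 5 of 5 higher in allogeneic than in syngeneic vehicle skin (14.6% of all genes were), summed to 21.25 to 40.96 CPM in the combination, 20.13 to 29.47 CPM in Wnt-C59, 44.07 to 73.18 CPM in allogeneic vehicle and 3.76 to 6.75 CPM in syngeneic vehicle skin. Macrophage genes, also 5 of 5 higher, summed to 836.2 to 1429, 752.3 to 1203, 2360 to 3292 and 293.4 to 494.5 CPM in those groups. Epidermal genes, with 3 of 6 higher in allogeneic than in syngeneic vehicle skin, summed to 28990 to 43110 CPM in the combination, 29430 to 50610 CPM in Wnt-C59, 22700 to 39610 CPM in allogeneic vehicle and 9658 to 17280 CPM in syngeneic vehicle skin. Adipocyte genes had 2 of 4 lower in allogeneic than in syngeneic vehicle skin (15.1% of all genes were), Lep (adjusted p = 0.00058) and Fabp4 (adjusted p = 0.0037). The 4 adipocyte genes summed to 983.1, 773.8, 1073 and 1236 CPM in combination libraries 2, 3, 4 and 5. The part of these cell types in the result was not tested.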

How the data were processed

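Skin RNA of 15 libraries was analysed from 1 table of gene counts. Per the submitters' processing notes, FastQC, Trim Galore, HISAT2, featureCounts and build GRCm39 were used, with versions, strand setting and multi-mapping rule not given in the sources used here. The deposited values are estimated counts, since many are not whole, and they were rounded to whole numbers in place of the whole counts the plan had assumed. Symbols, lengths and GC content came from GENCODE M21 and matched 51276 of 56059 genes (91.5%), and 84 of 85 listed genes.

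edgeR 4.0.16 (R 4.3.3) fitted all 4 groups with TMM scaling, its default filter on low counts and a robust quasi-likelihood test, with Benjamini-Hochberg adjustment over 18651 genes and a threshold of 0.05. The SE of a log2 fold change is its size divided by the square root of the F statistic. Folds are ratios of mean CPM, with a floor of 3 counts per library for groups at 0 and exact Poisson 95% intervals on the lower group where it held 1 to 100 counts in all, which cover counting error only. limma 3.58.1 (voom), DESeq2 1.42.0, other filters, fits of 2 groups, GC correction and leaving out each library were alternatives. Procedures were tested on simulated data.

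The rule for named genes covered the 7 genes, every other listed inner root sheath gene, up to 3 called genes with the smallest adjusted p in allogeneic against syngeneic vehicle of each other list (or 1 where none was called), and the 10 genes most like the mean of the 7. Not every gene under that rule is named, as with Sox9 of the bulge list and the T cell and macrophage genes. Tbx1, Lgr5, Cd34, Crabp1, Scd1 and Krt84 were named outside it. Per-library values of single genes were chosen after their values were seen. The genes, lists and tests were chosen with earlier results of these data known.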

Additional observations from a re-analysis of the deposited data

Results flagged for a closer look

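In 21 groups of 4 libraries tested with Dixon's criterion at its 95% critical value, 7 had a highest library far from the rest. The criterion's rate of about 1 in 20 holds for normally distributed values, so it does not apply to CPM with values at 0. In the combination, library 4 stood apart for Krt27 at 6280 CPM, Krt28 at 1310 CPM, Krt71 at 15100 CPM, Krt72 at 2120 CPM and Tchh at 7040 CPM. These 5 are not independent, since they come from 1 library and genes that moved together. In Wnt-C59 skin, library 5 stood apart for Krt25 at 0.0951 CPM, which was 2 counts, and library 4 for Krt72 at 0.0521 CPM, which was 1 count, where the other 3 libraries had 0. A group with 3 libraries at 0 and 1 above 0 is always flagged.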

How the results depend on the processing

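Calls rested on few libraries and on how the spread was modelled. Of the 7 genes, limma-voom called 1 in allogeneic against syngeneic vehicle, 0 in the combination against allogeneic vehicle, 2 in Wnt-C59 against syngeneic vehicle and 3 in the combination against syngeneic vehicle. DESeq2 called 1 in Wnt-C59 against allogeneic vehicle and 6 in the combination against Wnt-C59, with no adjusted p for Krt72. Fits of 2 groups only called 3 in Wnt-C59 against allogeneic vehicle and 3 in the combination against allogeneic vehicle, and gave no value where Krt25, Krt27 or Krt72 failed the filter. Without the combination libraries, a setting chosen after seeing the data, 3 passed in Wnt-C59 against allogeneic vehicle. Leaving out 1 library gave 2 to 5 calls in allogeneic against syngeneic vehicle, 4 to 7 in the combination against allogeneic vehicle, 6 to 7 in Wnt-C59 against syngeneic vehicle (6 without Wnt-C59 library 4) and 0 to 1 in the combination against syngeneic vehicle, and 0 in the combination against Wnt-C59. A minimum of 300 counts left shares in 8 libraries instead of 15. The cause was not tested.

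Directions turned in the combination against syngeneic vehicle alone. Log2 fold changes of Krt27, Krt28 and Krt71 were 0.27, 0.29 and 0.25 without combination library 2, 0.26, 0.29 and 0.25 without library 3, and 0.18, 0.16 and 0.12 without library 5. They were 0.09, 0.16 and 0.03 without syngeneic library 3, and without syngeneic library 2 Krt27 and Krt71 were both at 0.05. Krt72 was at -3.57 without combination library 4, at 1.45 without library 5 and at -6.73 with limma-voom. Without combination library 4, Krt27, Krt28 and Krt71 were at -3.19, -2.71 and -2.85. Of all log2 fold changes under alternatives, 535 kept direction and side of the threshold, 55 lost and 16 gained a call, and 16 turned. Krt72 had no value in Wnt-C59 against allogeneic vehicle without Wnt-C59 library 4, where both groups were at 0. Low counts limit every fold against a group near 0.

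Numbers 1 to 3 of allogeneic and syngeneic vehicle did not pair the libraries, with correlations of deviations of -0.065, -0.091 and -0.03. With the replicate block 7 of the 7 genes passed. No paired analysis was possible for treated groups because their columns carry no label numbers.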
